A study of Saccharomyces cerevisiae and Saccharomyces kudriavzevii and Saccharomyces uvarum with 18 samples.

Results

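The 10 genes that take up sulfate and reduce it to sulfide were followed in 3 cold-tolerant yeasts, each set against the wine strain Saccharomyces cerevisiae Lalvin T73. The genes were taken by their role in this route, with earlier results of these data known, and no measured value entered the rule. They were the sulfate permeases SUL1 (YBR294W) and SUL2 (YLR092W), the activating enzymes MET3 (YJR010W) and MET14 (YKL001C), the reductases MET16 (YPR167C), MET5 (YJR137C) and MET10 (YFR030W), the siroheme enzymes MET1 (YKR069W) and MET8 (YBR213W), and MET17 (YLR303W), which builds the sulfide into a carbon skeleton. All 10 were found among the 6172 genes of the array table.

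Expression was measured by competitive hybridisation of 2 labelled cDNAs on arrays of PCR-amplified ORFs from S. cerevisiae S288c, and each value is the log2 ratio of strain over T73 for 1 gene on 1 array. RNA came from wine fermentations of Tempranillo must, taken as the yeast entered stationary phase, so all groups shared this medium and this stage. The groups were S. kudriavzevii IFO 1802, S. uvarum CECT 12600 and S. cerevisiae Fermol cryophile (Fermol below), each at 12°C and at 28°C, with 3 arrays per group and 18 in all. T73 was in the Cy5 channel of every array and the strain in the Cy3 channel, with no dye swap. T73 therefore counts as no more than 1 control sample at a temperature. A dye effect cannot be told apart from a difference between strain and T73. The study made the comparison with T73 at both fermentation temperatures, so the T73 partners at 12°C and at 28°C may be different cultures. A temperature difference of the ratio may then lie in the strain or in T73.

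S. uvarum and S. kudriavzevii were each named in the sample titles as 1 strain, so strain and species cannot be told apart for them, while S. cerevisiae was present as Fermol and as T73. The arrays carry S288c sequence, and how well cDNA of the other species binds to it was not separated from expression. The study tested the conditions with DNA and reported that most genes of both species hybridised. Among aroma genes it listed MUP3 of S. uvarum, which is among the further sulfur genes below, as not hybridising. For S. uvarum the strain field of the labels gives a different collection number for each replicate, while the sample titles give CECT 12600 throughout, and the titles were followed. The methods speak of independent fermentations in one place and of independent hybridisation experiments in another, with different numbers, so the p-values measure the spread between these arrays, which may be partly technical. A ratio gives no absolute level: where all 3 strains lie on the same side of T73, a difference in the strains and one in T73 itself cannot be told apart, and the same holds when a ratio differs between temperatures.

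Yeast brings sulfate into the cell through Sul1 and Sul2. ATP sulfurylase (Met3) and APS kinase (Met14) activate it to PAPS, Met16 reduces PAPS to sulfite with thioredoxin as electron donor, and the sulfite reductase of Met5 and Met10 reduces sulfite to sulfide. Sulfite reductase carries siroheme, which Met1 and Met8 make, and Met17 joins the sulfide to O-acetylhomoserine to give homocysteine. The route is known in winemaking as the source of hydrogen sulfide and sulfite, and its genes are known targets of the activator Met4, which the ubiquitin ligase subunit Met30 holds in check.

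The arrays held values for 5675 to 6167 genes each, and their medians lay between -0.20 and 0.21. Replicates of a group correlated across all genes with Pearson r from 0.27 to 0.70 at 12°C and from 0.03 to 0.61 at 28°C. At 28°C, S. uvarum replicate A stood apart (r = 0.12 with B and 0.11 with C, against 0.61 between B and C), as did Fermol replicate C (0.09 with A and 0.03 with B, against 0.61 between A and B). S. kudriavzevii replicate C at 28°C stood apart to a lesser degree (0.19 with A and 0.16 with B, against 0.47 between A and B). Calls among the 10 genes that were gained or lost without any of these arrays are given beside the value over all arrays. Of 81 pairs of arrays from different temperatures, 15 correlated below -0.3 (minimum -0.62). Since the labels put the same dye on the same partner of every array and the temperatures may oppose each other, all arrays were read in 1 direction.

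A gene is called higher or lower where limma's moderated test, with Benjamini-Hochberg adjustment over all genes tested in that comparison, gave an adjusted p below 0.05. Over 16 comparisons and 10 genes, 8 calls were made, and they fell in 3 genes: MET8 with 4, MET3 with 2 and MET16 with 2. The other 7 genes were not called in any comparison. The plot of every array's value shows how these calls sit beside the spread of the replicates.

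**Figure D1:**
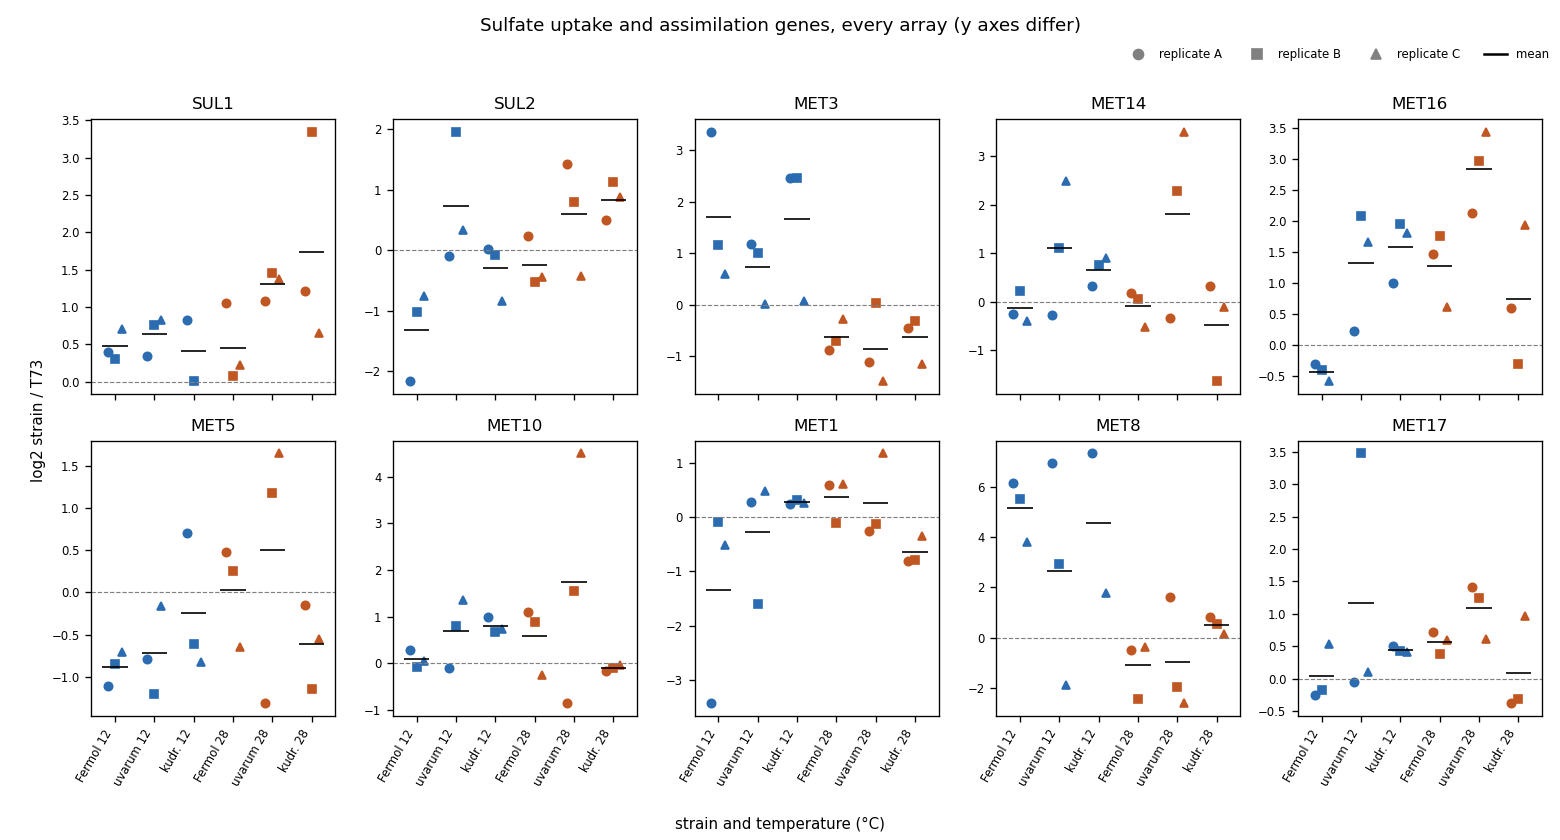
Log2 ratio of strain over T73 (y axis, a separate scale for each gene) for the 10 sulfate genes in each strain and temperature group (x axis, blue at 12°C and orange at 28°C). Circles, squares and triangles are replicates A, B and C, the bar is their mean, and the dashed line marks equality with T73. MET3 lay above the line on 9 of 9 arrays at 12°C and on 1 of 9 at 28°C, and SUL1 lay above it on all 17 arrays that measured it. For MET3, how many of all genes had such counts was not determined.

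SUL1, a high-affinity sulfate permease of the plasma membrane, was above T73 on all 17 arrays that measured it, from 0.01 to 3.35. Among 5873 genes with 17 or 18 values, 0.341% were above T73 on every array and 0.119% below it on every array. In S. uvarum at 28°C it lay at 1.08, 1.45 and 1.38 (replicates A, B and C), a mean of 1.30 ± 0.20 (SD, n = 3), and this missed the threshold (adjusted p = 0.0574). The same mean was called in the limma fits without S. kudriavzevii replicate C at 28°C (adjusted p = 0.0459) and without replicate B of that group (0.0242). S. kudriavzevii at 28°C had arrays at 1.21, 3.35 and 0.66, so 1 of them lay well above the other 2. The mean of 1.74 ± 1.42 (SD, n = 3) was not called (adjusted p = 0.124). At 12°C the 3 group means lay between 0.42 and 0.64, with no array at a 2-fold difference (a log2 of 1), and no SUL1 test at that temperature passed the threshold.

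SUL2, the second sulfate permease, is a close relative of SUL1, and cross-hybridisation between the pair on whole-ORF probes was not tested. It split evenly, with 9 of 18 arrays above T73 and 9 below. In Fermol at 12°C the values were -2.16, -1.02 and -0.75, all below T73, and S. uvarum at that temperature lay at -0.09, 1.96 and 0.34. The Fermol mean of -1.31 ± 0.75 (SD, n = 3) missed the threshold (adjusted p = 0.0663, and 0.0462 in the fit without S. uvarum replicate A at 28°C). In S. kudriavzevii at 28°C all 3 arrays lay above T73, at 0.49, 1.12 and 0.88.

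MET3, ATP sulfurylase, catalyses the first step inside the cell and gave one of the clearest temperature patterns of the route. In S. kudriavzevii at 12°C it lay at 2.47, 2.47 and 0.07, a mean of 1.67 ± 1.39 (SD, n = 3), and it was called higher (SE 0.53, adjusted p = 0.0321). Replicates A and B were at the same level and C was at T73's. The call was lost without replicate A or without replicate B, with adjusted p up to 0.199 and a mean down to 1.27.

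MET3 in Fermol at 12°C was at 3.36, 1.15 and 0.59, again above T73 on every array but with a wide spread. Its mean of 1.70 ± 1.46 (SD, n = 3) missed the threshold (adjusted p = 0.0545, and 0.047 in the fit without S. uvarum replicate A at 28°C). S. uvarum at 12°C lay at 1.18, 0.99 and 0.01. At 28°C 8 of 9 arrays lay on the other side of T73: the Fermol arrays were at -0.87, -0.71 and -0.28, those of S. kudriavzevii at -0.44, -0.32 and -1.15, and those of S. uvarum at -1.10, 0.03 and -1.49. None of these 28°C means was called against T73. The share of all genes that split between the temperatures like MET3 was not counted.

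MET14, APS kinase, makes PAPS from the product of Met3, yet its values did not run with those of MET3. S. uvarum held the highest ones. At 28°C they were -0.34, 2.28 and 3.50, a mean of 1.82 ± 1.96 (SD, n = 3) that missed the threshold (adjusted p = 0.0563). Replicate A lay on the other side of T73 from B and C, and without it the mean was 2.89 and the adjusted p 0.0108. At 12°C the same strain lay at -0.27, 1.10 and 2.49. S. kudriavzevii was above T73 on all 3 arrays at 12°C, at 0.34, 0.75 and 0.90, and Fermol stayed between -0.52 and 0.23 at both temperatures.

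MET16, PAPS reductase, gave the firmest call against T73. In S. uvarum at 28°C it lay at 2.13, 2.96 and 3.43, a mean of 2.84 ± 0.66 (SD, n = 3), or 7.17-fold, and it was called higher (SE 0.44, adjusted p = 0.00296, 95% interval 1.91 to 3.78). All 3 arrays were more than 4-fold above T73, replicate A included. The call held when each of the 18 arrays was left out in turn, with means from 2.55 to 3.20 and adjusted p up to 0.0424. With only the 3 arrays of the group in the fit it was not called (adjusted p = 0.161).

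S. kudriavzevii at 12°C had MET16 at 1.00, 1.95 and 1.80, a mean of 1.58 ± 0.51 (SD, n = 3) that was called higher (SE 0.44, adjusted p = 0.0187). The call was lost without replicate B or without replicate C, with adjusted p up to 0.106. S. uvarum at 12°C lay at 0.23, 2.09 and 1.67, a mean of 1.33 that missed the threshold (adjusted p = 0.0786). Fermol differed in sign between temperatures, with -0.30, -0.40 and -0.58 at 12°C and 1.47, 1.76 and 0.61 at 28°C. That difference of 1.71 was not called (adjusted p = 0.0765), and without Fermol replicate C at 28°C it was 2.04 and called (adjusted p = 0.0495). Over all groups MET16 was 2-fold or more above T73 on 10 of 18 arrays and never 2-fold below.

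MET5 and MET10 encode the 2 subunits of sulfite reductase, and the mean of MET10 lay above that of MET5 in every group. The arrays of the 2 genes were wholly apart only in Fermol and S. uvarum at 12°C and overlapped in every other group. The difference between the 2 genes was not tested. MET5 was below T73 on 13 of 18 arrays and on 8 of 9 at 12°C, where Fermol was at -1.11, -0.85 and -0.71. MET10 was above T73 on 11 of 18 arrays and on 7 of 9 at 12°C, where S. kudriavzevii was at 1.01, 0.68 and 0.74. Neither was called in any comparison.

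S. uvarum at 28°C gave the widest spread of both subunits, with MET5 at -1.31, 1.18 and 1.64 and MET10 at -0.85, 1.56 and 4.50. Replicate A lay below T73 and the other 2 above it for both genes. The MET10 mean of 1.74 ± 2.68 (SD, n = 3) had an adjusted p of 0.0814, and the MET5 mean of 0.50 ± 1.59 (SD, n = 3) one of 0.516. Without replicate A the means were 3.03 for MET10 (adjusted p = 0.00884) and 1.41 for MET5 (adjusted p = 0.0477).

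MET1, which starts siroheme synthesis as a methyltransferase, stayed close to T73 in most groups. The widest departure was in Fermol at 12°C, where replicate A was at -3.42 and replicates B and C at -0.09 and -0.52. In S. kudriavzevii it lay at 0.25, 0.32 and 0.26 at 12°C and at -0.81, -0.78 and -0.34 at 28°C. The difference of -0.92 between the 2 temperatures was not called (adjusted p = 0.51).

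MET8, which completes siroheme by oxidation and iron insertion, had both the highest ratios and the widest spread of the 10 genes. In Fermol at 12°C it lay at 6.17, 5.54 and 3.81, a mean of 5.18 ± 1.22 (SD, n = 3), or 36.2-fold, and was called higher (SE 1.26, adjusted p = 0.0309). This mean stood at percentile 99.97 of all genes in that group. All 3 arrays were far above T73, yet the call was lost without any 1 of them, with adjusted p up to 0.232 and means from 4.68 to 5.86.

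MET8 in S. kudriavzevii at 12°C was at 7.35 and 1.80 with no value for replicate B, and the mean of 4.57 (n = 2) was called higher (SE 1.54, adjusted p = 0.0425). That call was lost in 8 of 16 fits without 1 array. Those without Fermol replicate C at 28°C (adjusted p = 0.0505) and without S. kudriavzevii replicate C at 28°C were among them. In 2 further fits MET8 had too few values to be tested. S. uvarum at 12°C spanned 6.95, 2.94 and -1.91, the widest range of any gene of the route in any group, and was not called. At 28°C the Fermol arrays lay at -0.51, -2.44 and -0.36, those of S. uvarum at 1.64, -1.96 and -2.61, and those of S. kudriavzevii at 0.83, 0.55 and 0.13.

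MET17, the O-acetylhomoserine sulfhydrylase that takes up the sulfide, was above T73 on 13 of 18 arrays with small ratios. In S. uvarum at 28°C the values were 1.41, 1.24 and 0.61, a mean of 1.08 ± 0.42 (SD, n = 3) with an adjusted p of 0.175. At 12°C 1 array of S. uvarum stood at 3.47 and the other 2 at -0.05 and 0.10. S. kudriavzevii at 12°C had the closest replicates of MET17, at 0.50, 0.42 and 0.41.

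The counts of calls among the 10 are set here beside those among all genes. At 12°C 1 of 10 was called in Fermol, MET8, where 8.12% of all genes tested were called and 5.61% called higher. For S. kudriavzevii at that temperature it was 3 of 10, all higher, where 23.4% of genes were called and 13.7% called higher. All 3 of these calls were lost when the arrays were scaled to 1 spread or quantile-normalised, and when the fit held only the arrays of that group, with adjusted p between 0.0624 for MET8 and 0.169 for MET3. In S. uvarum at 12°C none of the 10 was called by limma, where 6.4% of genes were, and 2 had an unadjusted p below 0.05, as did 24.7% of all genes. These 3 comparisons share T73 as their control, so they are not independent of each other. Shares this close to those of all genes are no result about the route.

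At 28°C, S. uvarum had 1 of 10 called, MET16, where 10.9% of genes were called and 7.99% called higher. In Fermol and S. kudriavzevii limma called none of the 10, where 0.0325% and 0.146% of genes were called, and 1 of the 10 had an unadjusted p below 0.05 in each, as did 13.4% and 11.3% of all genes. In S. uvarum at 28°C 5 of the 10 had an unadjusted p below 0.05, as did 28.2% of all genes. Without replicate A of that group, 4 of the 10 were called, where 12.1% of genes were in the same fit. Without that array 3 of the 10 were also called in Fermol at 12°C, where 13.2% of genes were.

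The study's own limit, a median of at least 2-fold over the replicates, has no test and passed more of the route. In S. uvarum at 28°C 8 of 10 genes passed it (6 higher and 2 lower), where 34.2% of all genes did (19.3% higher and 14.9% lower). At 12°C 3 of 10 passed in Fermol, where 30.3% did, and in S. uvarum and S. kudriavzevii 3 of 10 each, where 27.8% and 40.3% did. At 28°C 1 of 10 passed in Fermol (22.5% of genes) and 1 of 10 in S. kudriavzevii (15.1%). The 6 higher genes of S. uvarum were SUL1, MET14, MET16, MET5, MET10 and MET17, and the 2 lower ones were MET3 and MET8.

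The median log2 over the 10 genes in S. uvarum was 0.84 at 28°C and 0.73 at 12°C, beside 0.09 and 0.04 over all genes. In S. kudriavzevii it was 0.55 at 12°C, beside 0.08 over all genes, and 0.00 at 28°C, beside 0.00. In Fermol it was -0.05 at 12°C and 0.20 at 28°C, beside -0.13 and 0.07. These medians describe the 10 genes and were not tested.

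The question of whether a strain's standing against T73 differs with temperature was answered by the difference of the log2 ratio at 28°C minus that at 12°C. Averaged over the 3 strains, MET3 was lower by 2.07 at 28°C (SE 0.43, adjusted p = 0.00217, 95% interval -2.98 to -1.16). MET8 was also called, with a difference of -4.66 (SE 1.07, adjusted p = 0.00413, 95% interval -6.93 to -2.40). These were 2 of 10 genes, both lower, where 36.2% of genes were called and 16.4% called lower, so the count is no more than that of other genes. The MET3 call held without each of the 18 arrays in turn, with differences from -2.34 to -1.79. The MET8 call held in all 16 fits without 1 array in which it could be tested, from -5.42 to -3.95.

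Within single strains the same 2 genes had the widest differences, with fewer calls. MET8 in Fermol differed by -6.28 (SE 1.78, adjusted p = 0.0343), the 1 gene of 10 called there, where 12.2% of genes were called and 6.57% called lower. The call was lost without any 1 of the 3 Fermol arrays at 12°C or without replicate A or B at 28°C, with adjusted p up to 0.165, and held without the outlying replicate C at 28°C. In S. uvarum and S. kudriavzevii the MET8 differences were -3.64 (adjusted p = 0.232) and -4.07 (adjusted p = 0.259). MET3 differed by -2.32 in Fermol (adjusted p = 0.0515, and 0.0457 without S. uvarum replicate A at 28°C), by -1.58 in S. uvarum (adjusted p = 0.215) and by -2.30 in S. kudriavzevii (adjusted p = 0.116). In these last 2 strains limma called none of the 10, where 2.87% and 0.407% of genes were called, and 2 and 1 of the 10 had an unadjusted p below 0.05, as did 22.9% and 20.4% of all genes. Without S. uvarum replicate A at 28°C, MET5 (2.13, adjusted p = 0.0313) and MET10 (2.34, adjusted p = 0.0451) were called between temperatures in S. uvarum, against 1.23 and 1.05 with it. In that fit 10.9% of genes were called in the comparison. By the 2-fold rule on medians, which has no test, 5 of 10 genes differed between temperatures in Fermol, 6 in S. uvarum and 4 in S. kudriavzevii, where 53.3%, 45.2% and 38.5% of all genes did.

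**Figure D2:**
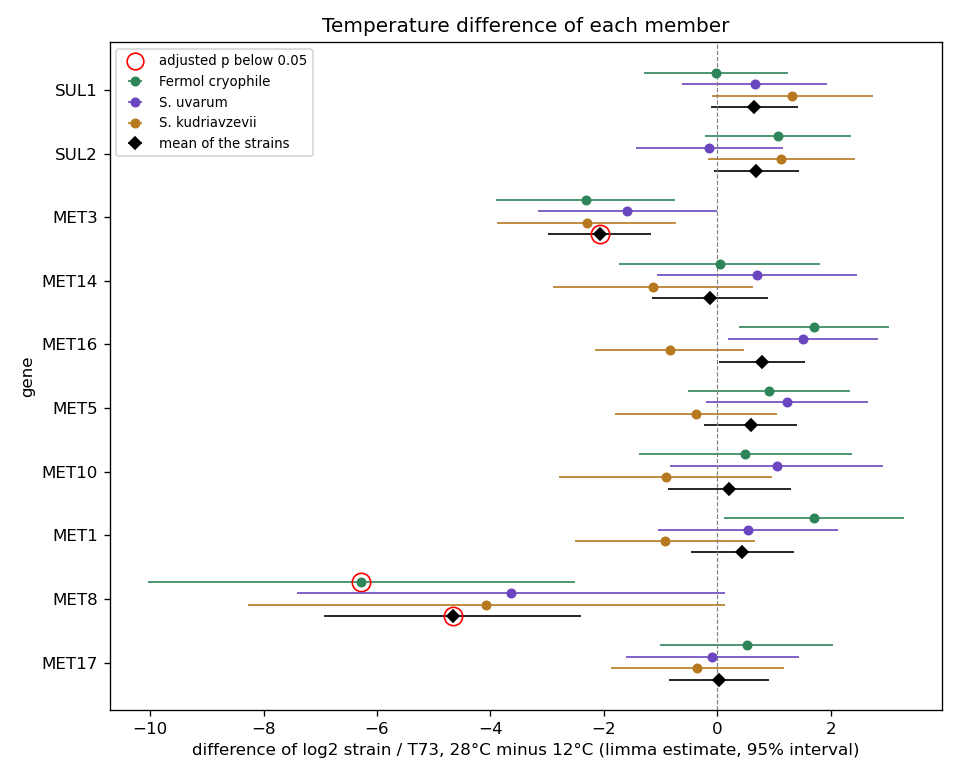
Difference of the log2 ratio of strain over T73, 28°C minus 12°C (x axis), for each of the 10 genes (y axis). Coloured points are the single strains and black diamonds the mean of the strains, with limma's 95% intervals, and red rings mark an adjusted p below 0.05. MET3 (-2.07) and MET8 (-4.66) lie left of 0 in the mean of the strains, and the other 8 genes have means between -0.13 and 0.79 with no call.

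For the remaining 8 genes the difference averaged over strains ran from -0.13 for MET14 to 0.79 for MET16, which had an adjusted p of 0.0954. MET5 averaged 0.59 (adjusted p = 0.243), and without S. uvarum replicate A at 28°C it was called at 0.89 (adjusted p = 0.028), where 42.8% of genes were called. MET14, MET16, MET5, MET10 and MET1 had positive differences in Fermol and S. uvarum and negative ones in S. kudriavzevii, that of MET14 in Fermol being only 0.04. For MET16 these were 1.71, 1.51 and -0.84. Over all arrays limma called no temperature difference of these genes in any strain. How many of all genes share this pattern of signs was not counted. No gene of the route had its 9 arrays at 12°C entirely above or below its 9 arrays at 28°C, which 1.72% of 5941 genes with higher and 1.63% with lower values at 28°C did. For MET3, a single array of S. uvarum at 28°C (0.03) lay within the range of the 12°C arrays.

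Between the strains themselves none of the 10 genes was called at either temperature. In 3 of these 6 comparisons no gene of the array was called, and in the others 0.0162%, 0.0163% and 0.146% of genes were. The number with an unadjusted p below 0.05 ran from 0 to 2 of 10, where 7.12% to 11.4% of all genes had one. By the 2-fold rule 4, 2 and 2 of the 10 differed at 12°C (S. uvarum against Fermol, S. kudriavzevii against Fermol, S. uvarum against S. kudriavzevii), where 23.1%, 20.5% and 24.7% of genes did. At 28°C it was 5, 3 and 6 of the 10, where 26.5%, 32.6% and 35.6% did. The lowest p at 12°C was that of SUL2, whose means in S. uvarum and Fermol lay 2.05 apart (95% interval 0.75 to 3.34, adjusted p = 0.582). MET16 differed by 2.01 between S. kudriavzevii and Fermol at 12°C (95% interval 0.69 to 3.33, adjusted p = 0.667). At 28°C the mean of S. uvarum exceeded that of S. kudriavzevii by 2.10 for MET16 (95% interval 0.78 to 3.42, adjusted p = 0.221) and by 2.28 for MET14 (95% interval 0.52 to 4.05, adjusted p = 0.306). Without S. uvarum replicate A, MET14 (3.36) and MET10 (3.13, against 1.84 with it) were called in this comparison, both with an adjusted p of 0.0487, where 0.934% of genes were. The intervals over all arrays leave room for differences of more than 4-fold.

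The 10 genes did not move as 1 block across arrays. Over the 45 pairs of genes, Pearson r across the 9 arrays of a temperature had a median of 0.21 at 12°C and 0.03 at 28°C, with a range from -0.85 to 0.91. The arrays share T73 and hold 3 strains each, so these values are a description and carry no p. MET14 and MET10 ran together at both temperatures, with r of 0.84 (Spearman's rho 0.82) at 12°C and 0.87 (rho 0.73) at 28°C, and MET14 and MET16 did so with r of 0.75 and 0.85. At 28°C the r of MET14 and MET10 was 0.35 without the 2 arrays farthest from the median of MET14, so it rests on those arrays. MET5 joined them at 28°C, with r of 0.90 to MET10 and 0.91 to MET14, but not at 12°C, where r was 0.51 and 0.21, and the first of these was -0.25 without the 2 arrays farthest from the median of MET5.

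MET8 ran against MET14 at both temperatures, with r of -0.85 over the 8 arrays at 12°C that measured both and -0.69 at 28°C. Without the 2 arrays farthest from the median of MET14 these were -0.48 and -0.25, so they rest on those arrays. MET3 and MET8 ran together at 12°C (r = 0.74, rho 0.90) and not at 28°C (r = 0.05). The enzyme of the first activation step and the last siroheme enzyme therefore shared their high arrays at 12°C, while MET14, the next step after MET3, had its high arrays elsewhere.

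**Figure D3:**
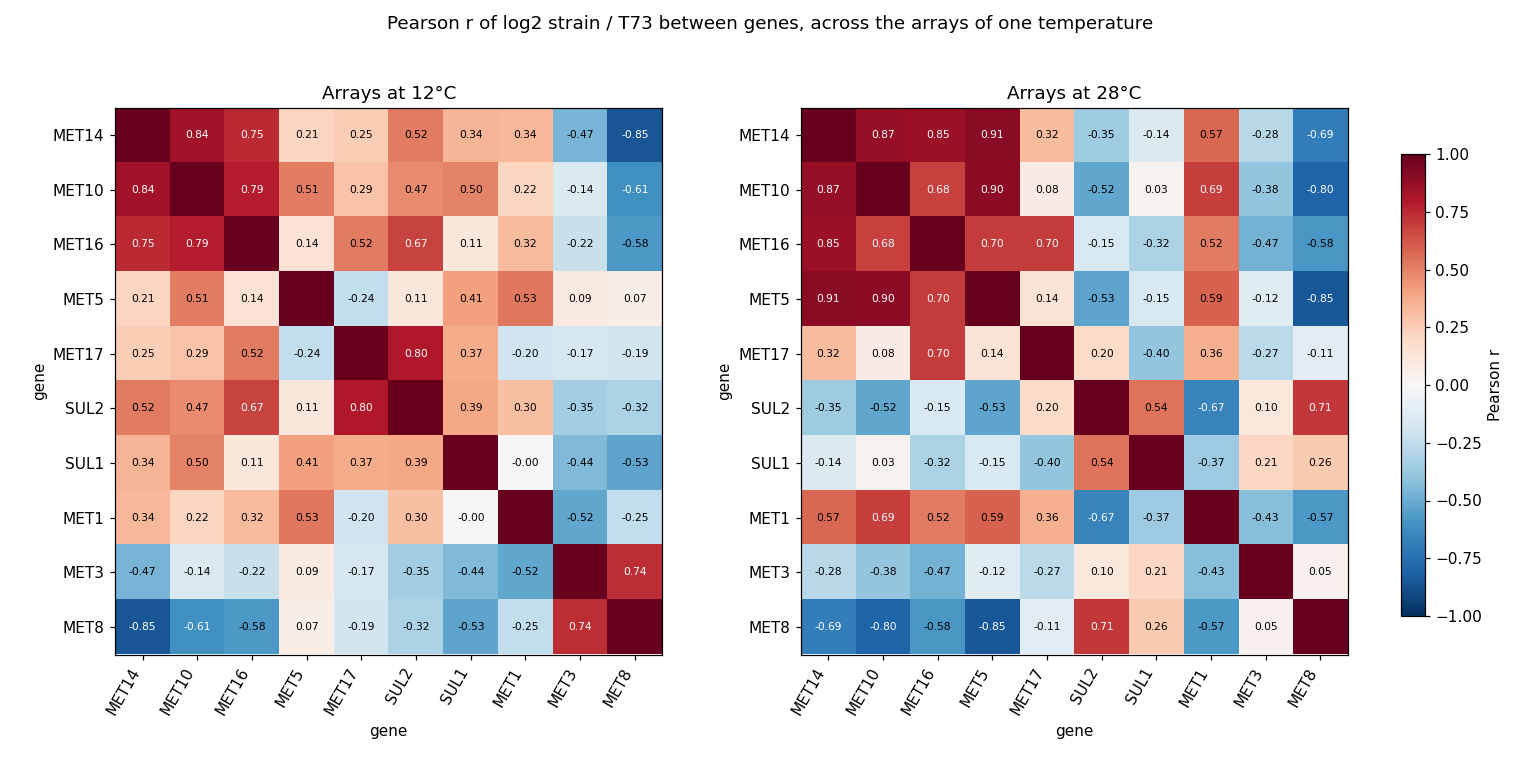
Pearson r of the log2 ratio between each pair of the 10 genes (both axes), across the 9 arrays at 12°C (left, 8 arrays for pairs with a missing value) and the 9 arrays at 28°C (right). Red marks positive and blue negative r. MET14, MET10 and MET16 form a positive block in both panels, MET5 belongs to it at 28°C (0.91 with MET14), and MET8 is negative to MET14 in both (-0.85 and -0.69).

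Around the sulfate route, 35 further genes of sulfur metabolism were examined by role: 4 of the homoserine branch, 7 of the methionine and AdoMet cycle, 4 of transsulfuration, 7 regulators, 10 of sulfur compound transport and recycling and 3 that help PAPS reduction. Over the comparisons with T73 and between temperatures they gave 35 calls in 16 genes. At 12°C limma called 2 of 35 lower in Fermol (2.51% of all genes were), 1 higher and 2 lower in S. uvarum (2.44% and 3.96%), and 3 higher and 6 lower in S. kudriavzevii (13.7% and 9.74%). At 28°C it called 4 of 35 higher in S. uvarum (7.99%) and none in Fermol or S. kudriavzevii (0.0325% and 0.146% called in either direction). In Fermol 3 of the 35 and in S. kudriavzevii 1 had an unadjusted p below 0.05, as did 13.4% and 11.3% of all genes. Between temperatures 2 of 35 were higher and 1 lower at 28°C in Fermol (5.64% and 6.57% of all genes), 3 higher in S. uvarum (2%), and 7 higher and 4 lower in the average over strains (19.8% and 16.4%). In S. kudriavzevii limma called none of the 35 between temperatures, where 0.407% of all genes were called. Of the 35, 3 had an unadjusted p below 0.05 there, as did 20.4% of all genes. No gene of the homoserine branch was called. Of the 35 calls, 6 held when each array was left out in turn, and 29 were lost at least once. Under 9 other settings of the processing, 9 of the 35 calls were kept throughout, and 26 were lost at least once. Losses came mainly with only the arrays of the groups compared (19 calls), with scaled arrays (18) and with quantile normalisation (15).

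Among the regulators, MET30 carried the clearest pattern. Met30 is the ubiquitin ligase subunit that restrains Met4. It was below T73 on all 9 arrays at 12°C, at -1.98, -1.59 and -1.28 in Fermol, at -1.48, -2.20 and -2.85 in S. uvarum, and at -1.77, -1.84 and -2.53 in S. kudriavzevii. At 28°C the 9 arrays lay between -0.57 and 1.57, and none overlapped with those at 12°C. MET30 was the only one of these 35 genes whose 2 temperatures were wholly apart. Of 5941 genes on the array, 1.72% were wholly apart with higher and 1.63% with lower values at 28°C. The count among the 35 is near these shares and is no result about the list. It was called lower at 12°C in Fermol (-1.62, adjusted p = 0.0355), S. uvarum (-2.17, adjusted p = 0.0105) and S. kudriavzevii (-2.05, adjusted p = 0.00583). It was called higher at 28°C than at 12°C averaged over strains (2.27, SE 0.34, adjusted p = 0.00033).

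The calls of MET30 in S. kudriavzevii at 12°C and averaged over strains held without each array in turn, the latter with differences from 2.11 to 2.46. The average was also kept under all 9 other settings, and the S. kudriavzevii call under 8, the exception being the fit with only its own arrays (adjusted p = 0.116). In Fermol at 12°C the call was lost without any 1 of its 3 arrays, with adjusted p up to 0.243, and in S. uvarum without replicate B or C, with adjusted p up to 0.0809. Within strains, the temperature difference was called in Fermol (1.94, adjusted p = 0.0439) and S. uvarum (2.73, adjusted p = 0.0307), and both calls were lost in at least 4 of the fits without 1 array.

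The DNA-binding factor CBF1, which recruits Met4 to its targets, was called higher in S. kudriavzevii at 12°C (1.41, adjusted p = 0.0241), a call lost without replicate B. Averaged over strains it was lower at 28°C (-1.06, adjusted p = 0.0231), lost without Fermol replicate A at 28°C (adjusted p = 0.0545). GCN4, the general activator of amino acid synthesis, was called lower in S. kudriavzevii at 12°C, with arrays at -1.90, -1.89 and -1.94 (adjusted p = 0.0423), and higher at 28°C averaged over strains (1.51, adjusted p = 0.035). These calls were lost in 7 and 9 of the 18 fits without 1 array, although the S. kudriavzevii mean stayed between -1.92 and -1.89, and in 5 and 2 of the 9 other settings. MET4, MET28, MET31 and MET32 were not called.

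Of the 4 transsulfuration genes, 3 were called in some comparison and CYS3 in none. CYS4, cystathionine beta-synthase, makes cystathionine from homocysteine and serine. It was below T73 on all 9 arrays at 12°C, from -2.59 to -1.33. At 28°C it lay at 2.23, 2.08 and 0.03 in Fermol, at 0.68, 3.44 and 3.11 in S. uvarum and at -1.71, -0.83 and 1.20 in S. kudriavzevii. The first 2 strains were thus above T73 on every array and S. kudriavzevii on 1 of 3. Averaged over strains CYS4 was higher at 28°C by 2.77 (SE 0.46, adjusted p = 0.000651), and this held without each array in turn, from 2.50 to 3.06, and under all 9 other settings.

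CYS4 was also called lower in S. kudriavzevii at 12°C (-1.87, adjusted p = 0.027) and higher in S. uvarum at 28°C (2.41, adjusted p = 0.0148, and 3.28 without replicate A). Its temperature difference was called in Fermol (3.06, adjusted p = 0.028) and S. uvarum (3.84, adjusted p = 0.0279). These 4 calls were each lost without at least 2 of the 18 arrays. STR3, cystathionine beta-lyase, was called lower at 12°C in Fermol (-1.49, adjusted p = 0.0341), S. uvarum (-1.52, adjusted p = 0.0294) and S. kudriavzevii (-1.16, adjusted p = 0.0386). All 9 of its 12°C arrays lay below T73, from -2.18 to -0.38.

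Averaged over strains, STR3 was higher at 28°C by 1.45 (SE 0.31, adjusted p = 0.00263), which held without each array in turn, from 1.34 to 1.60, and under all 9 other settings. In S. uvarum its temperature difference of 2.36 was called (adjusted p = 0.0349) and was lost in 8 of 18 fits without 1 array. The 3 STR3 calls against T73 at 12°C were lost without 2 or 3 of the group's own arrays, with adjusted p up to 0.255. STR2, cystathionine gamma-synthase, was higher at 28°C averaged over strains (1.51, adjusted p = 0.025, lost in 5 of 18 such fits).

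In sulfur compound transport, SSU1 encodes the sulfite exporter that wine yeasts use against sulfite. It was called lower in S. kudriavzevii at 12°C, with arrays at -2.41, -2.36 and -2.78 and a mean of -2.51 ± 0.23 (SD, n = 3), or 5.72-fold (adjusted p = 0.0093). The 3 arrays were close together, and the call held without each array in turn (adjusted p up to 0.0443). It was lost with only the arrays of that group (adjusted p = 0.116), with scaled arrays (0.0905) and with quantile normalisation (0.0557), and kept under the other 6 settings. In Fermol and S. uvarum at 12°C SSU1 had means of -1.15 and -1.27 that were not called, and at 28°C its replicates spanned both sides of T73 in all 3 strains.

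FZF1, the activator of SSU1, was called higher in S. kudriavzevii at 12°C (2.42, adjusted p = 0.0242) on the strength of replicate B, at 5.62 against 0.99 and 0.64 in the others, and without it the mean was 0.82 (adjusted p = 0.361). Averaged over strains FZF1 was lower at 28°C (-1.55, adjusted p = 0.0482), lost in 13 of 18 fits without 1 array. YCT1, a high-affinity cysteine transporter, was lower at 28°C in Fermol (-1.81, adjusted p = 0.0287, lost in 5 such fits) and averaged over strains (-1.04, adjusted p = 0.00924, held in all 18 and under all 9 other settings). MUP1, the high-affinity methionine permease, was lower at 28°C averaged over strains (-1.30, adjusted p = 0.0453, lost in 11). SAM4, which recycles AdoMet to methionine, was higher in S. kudriavzevii at 12°C (1.10, adjusted p = 0.0444, lost in 12, and in 6 of the 9 other settings). SAM4 has the close relative MHT1, whose cDNA the probes may not tell apart.

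**Figure D4:**
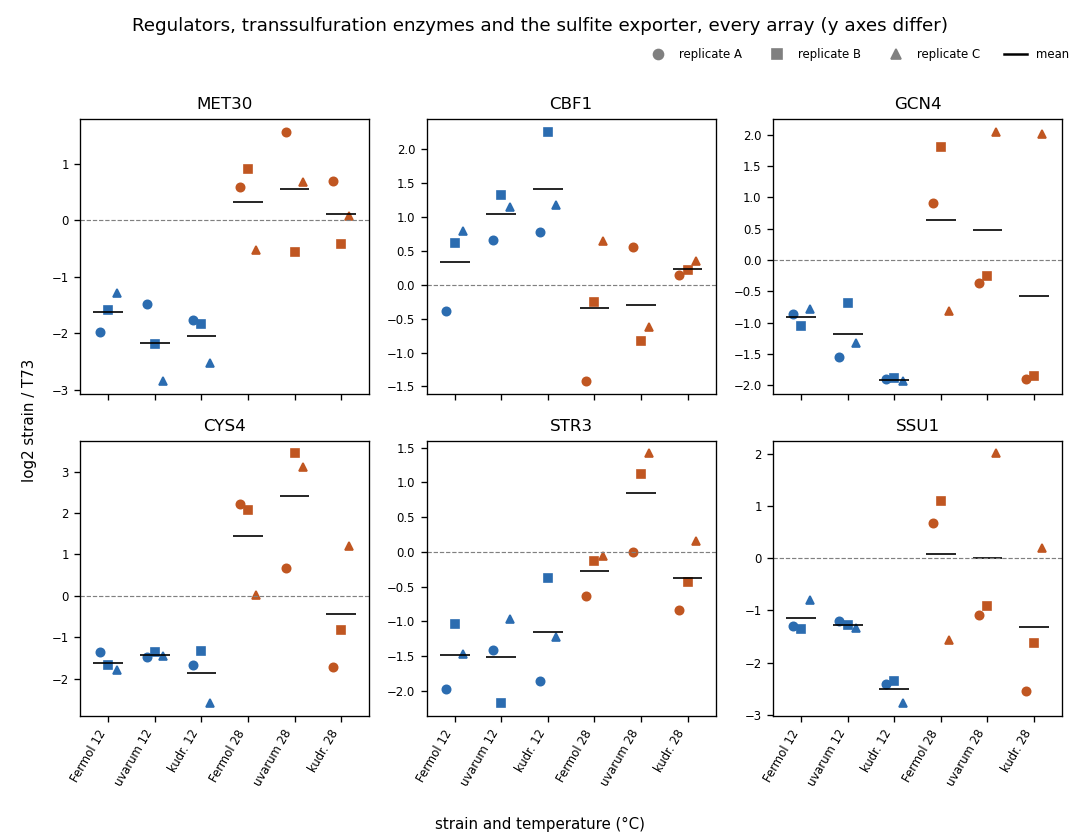
Log2 ratio of strain over T73 (y axis, a separate scale for each gene) for 6 genes around the sulfate route in each strain and temperature group (x axis, blue at 12°C and orange at 28°C). Circles, squares and triangles are replicates A, B and C, and the bar is their mean. MET30, GCN4, CYS4, STR3 and SSU1 lay below the dashed line of equality with T73 on all 9 arrays at 12°C. How many of all genes did so was not counted. The 6 genes were each called against T73 at 12°C in at least 1 strain, so they do not stand for the whole list. MET30 alone of the 6 shows no overlap with its 28°C arrays.

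Of the 6 calls in the methionine and AdoMet cycle, 3 were against T73 in S. uvarum. MET6, the methionine synthase, was in that strain at 28°C at 1.88, 1.67 and 2.63, a mean of 2.06 that was called higher (adjusted p = 0.0239). SAH1, S-adenosylhomocysteine hydrolase, was at 1.24, 2.49 and 2.80 with a mean of 2.18 (adjusted p = 0.0115). Each of these calls was lost without replicate C, with adjusted p of 0.175 for MET6 and 0.116 for SAH1, and each held without replicate A. The thioredoxin gene TRX2, a helper of PAPS reduction, was also called higher there (1.21, adjusted p = 0.0389) and lost in 7 of 18 fits without 1 array and in 6 of the 9 other settings.

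SAM1, an AdoMet synthetase with the near-identical copy SAM2, was called higher in S. uvarum at 12°C (2.55, adjusted p = 0.0493). Replicate B stood at 6.04 against 0.41 and 1.20 in A and C, and without B the mean was 0.81 (adjusted p = 0.477). MET13, a methylenetetrahydrofolate reductase, was lower in S. kudriavzevii at 12°C (-1.43, adjusted p = 0.0401, lost in 4 of 18 fits without 1 array). Averaged over strains, MET6 (1.24, adjusted p = 0.0368) and MET13 (1.12, adjusted p = 0.0343) were higher at 28°C, and these were lost in 11 and 10 of the 18.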

How the data were processed

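The deposited table holds 1 log2 ratio per ORF and array, as the authors made it: GenePix Pro signals with global background subtraction were normalised in Acuity, not-found spots were dropped and a manual print-tip correction followed. Genome build and dye order of the ratio were not given in the sources used here. Cy5 over Cy3 would be T73 over strain, and the sign was turned. As a check, 80 directions in the text of the study were compared: 80 of 80 matched the turned sign and 0 the sign as deposited. This bears on the sign of the table and leaves untested whether the dyes were noted rightly.

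Of 6180 lines, 2 control spots were left out and 12 ORFs were matched by an older name through the RefSeq annotation of assembly R64, used for names only. Lines of 6 genes present more than once were averaged, leaving 6172 genes. Of the values 1.48% were missing and not imputed, and 76 values below -10 were kept. Ratios carry no depth, so the number of arrays limits the precision.

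Each gene was fitted with limma 3.58.1 (R 4.3.3), 1 coefficient per group over all 18 arrays (prior degrees of freedom 4.74), two-sided, with at least 2 values per group compared and Benjamini-Hochberg adjustment over all genes tested at a threshold of 0.05. The script was tested on simulated data. Alternatives were array weights, only the arrays of the groups compared, centring, scaling and quantile normalisation of arrays, values below -10 set to missing, 3 values required per group, the replicate letter as a block, robust moderation, the authors' 2-fold median rule and leaving out each array in turn. Replicate letters did not pair the arrays: residuals of arrays with the same letter correlated with a median r of 0.026 (18 pairs, 5 above 0.1) and those with another letter with -0.013.

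The 10 genes and the list of 35 were chosen with earlier results of these data known. All 10 were named, and of the 35 those called in a comparison against T73 or between temperatures, at most 3 per role and comparison. No promoter or protein sequence was used here.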

Additional observations from a re-analysis of the deposited data

Results flagged for a closer look

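The following differences between groups stood out by limma's test of the difference itself (adjusted p below 0.05), as log2 of the ratio at 28°C minus that at 12°C. Within Fermol they were -6.28 for MET8, 3.06 for CYS4, 1.94 for MET30 and -1.81 for YCT1. Within S. uvarum they were 3.84 for CYS4, 2.36 for STR3 and 2.73 for MET30. Averaged over strains they were -2.07 for MET3, -4.66 for MET8, 1.24 for MET6, 1.12 for MET13, 2.77 for CYS4, 1.51 for STR2, 1.45 for STR3, -1.06 for CBF1, 2.27 for MET30, 1.51 for GCN4, -1.30 for MUP1, -1.04 for YCT1 and -1.55 for FZF1. In the same average 36.2% of all genes were called.

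Another 9 differences stood out because every array of one group lay above T73 and every array of the other below it. Limma called none of them. How many of all genes split in this way was not counted, so the 9 are no result about the route. Between 28°C and 12°C these were MET3 in Fermol (-2.32, adjusted p = 0.0515) and in S. kudriavzevii (-2.30, adjusted p = 0.116), MET16 in Fermol (1.71, adjusted p = 0.0765), and MET10 (-0.90, adjusted p = 0.599) and MET1 (-0.92, adjusted p = 0.51) in S. kudriavzevii. Between strains at 12°C they were MET16 in S. uvarum against Fermol (1.76, adjusted p = 0.597), and MET16 (2.01, adjusted p = 0.667) and MET1 (1.62, adjusted p = 0.683) in S. kudriavzevii against Fermol. At 28°C it was MET8 in S. kudriavzevii against Fermol (1.60, adjusted p = 0.806).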

How the results depend on the processing

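Of the 8 limma calls among the 10 genes, all 8 were kept with arrays centred and with values below -10 missing, 7 with array weights and with robust moderation, 5 with arrays scaled and with quantile normalisation, and 4 with only the arrays of the groups compared. With 3 values required per group, 6 were kept and 2 could not be tested. In Fermol at 12°C the count of 1 became 4 with array weights, 3 with quantile normalisation or the 2-fold rule, and 2 with group arrays only, centring or scaling. In S. kudriavzevii at 12°C the count of 3 became 0 with group arrays only, scaling or quantile normalisation. In S. uvarum the count of 0 at 12°C became 1 with array weights and 3 by the 2-fold rule, and the count of 1 at 28°C became 2 with array weights, 0 with group arrays only and 8 by the 2-fold rule. At 28°C the count of 0 became 1 in Fermol (array weights, quantile, 2-fold rule) and 1 in S. kudriavzevii (array weights, scaling, quantile, 2-fold rule). For 28°C against 12°C in Fermol the count of 1 became 4 with array weights, 3 with quantile normalisation, 5 by the 2-fold rule, and 2 with group arrays only, centring, scaling, values below -10 missing or 3 values required. Averaged over strains the count of 2 became 1 with 3 values required and 3 with array weights (MET16, 0.95, adjusted p = 0.0175) and by the 2-fold rule. By the 2-fold rule the temperature counts of 0 became 6 in S. uvarum and 4 in S. kudriavzevii. By the same rule the strain pairs, each at 0, gave 4, 2 and 2 at 12°C (S. uvarum against Fermol, S. kudriavzevii against Fermol, S. uvarum against S. kudriavzevii) and 5, 3 and 6 at 28°C, and the last pair gave 1 with array weights. The cause of these changes was not tested. With the replicate block, the counts in Fermol at 12°C and between temperatures in Fermol became 2 each, by MET3 (adjusted p = 0.0292 and 0.0288), and no other call among the 10 genes changed, while 8 of the 35 calls in the wider list were lost.

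Leaving out 1 array at a time, the counts ranged from 0 to 3 in Fermol, 0 to 1 in S. uvarum and 0 to 3 in S. kudriavzevii at 12°C, and from 1 to 4 in S. uvarum at 28°C, with 4 without replicate A. Between temperatures they ranged from 0 to 2 in Fermol, 0 to 2 in S. uvarum, 0 to 1 in S. kudriavzevii and 1 to 3 in the average, and for S. uvarum against S. kudriavzevii at 28°C from 0 to 2. Medians in place of means turned the sign of 3 uncalled differences: MET17 between temperatures in S. uvarum (1.14 against -0.09), MET3 in S. kudriavzevii against Fermol at 12°C (1.32 against -0.03) and MET8 in S. uvarum against Fermol at 28°C (-1.46 against 0.12).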
